A study of Mus musculus with 6 samples.

Results

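The tripartite motif (TRIM) genes of mouse lung fibroblasts were taken from the deposited count table as its protein-coding rows named Trim with a number, together with Pml. The rule gave 69 genes of the 55487 in the table, 21936 of which are protein coding. The study compared 3 libraries of primary lung fibroblasts from wild-type C57BL/6 mice given a recombinant form (rmCIRBP, 1 µg/mL) of CIRBP, the cold-inducible RNA-binding protein, with 3 libraries given PBS. All the cells had been starved in 0.1% serum for 24 h, were treated for 24 h, and were sequenced in 1 batch from polyA-selected RNA. Outside the cell CIRBP is known as a ligand of Toll-like receptor TLR4. Separate animals or cultures are not named in the labels, and the spread behind each p-value is that of these libraries, which may be technical.

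TRIM proteins are built from a RING finger, B-box zinc fingers and a coiled coil, followed by a C-terminal part that differs between subfamilies and picks the target. The RING finger passes ubiquitin from an E2 enzyme to the target, so most members are E3 ubiquitin ligases. Many with a B30.2 (SPRY) domain at the C terminus are known for antiviral and innate immune roles, and several are induced by interferon. Others are transcriptional corepressors, scaffolds of nuclear bodies, or proteins of muscle and microtubules.

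Depth was 12105584 to 14262375 counts per library, and the TRIM genes took 0.225% to 0.245% of the counts in rmCIRBP and 0.195% to 0.217% in PBS. Where a gene had no count, its level could still be as high as 3 counts, or 0.210 to 0.248 CPM (counts per 1000000), from counting error alone. The fibroblast label was checked against 8 markers, which were all detected, with a summed level of 19883 to 26619 CPM in rmCIRBP and 23575 to 28623 CPM in PBS. Most of the sum came from the collagen genes Col1a1, Col1a2 and Col3a1. Lum was low, at 0.578 to 2.65 CPM in rmCIRBP and 1.30 to 1.85 CPM in PBS. Of the 8, 1 was called higher (Dcn) and 1 lower (Thy1). Of 8 leukocyte markers, the T cell marker Cd3e had no count, and the list summed to 67.2 to 127 CPM in rmCIRBP and 113 to 146 CPM in PBS. Most of that sum came from Lyz2, at 44.5 to 91.7 CPM in rmCIRBP and 92.7 to 124 CPM in PBS. Of the 5 tested members of the list 1 was called, Adgre1, a macrophage marker, at 5.21 to 11.3 CPM in rmCIRBP and 1.44 to 1.87 CPM in PBS. Not called were Ptprc and Csf1r (log2 fold changes 1.11 and 0.43) and Lyz2 and Cd68 (-0.55 and -0.41). The 6 neutrophil markers summed to 1.23 to 1.69 CPM in rmCIRBP and 0 to 0.250 CPM in PBS, with S100a9, Ly6g and Elane at 0 in all libraries. The 5 epithelial markers summed to at most 0.479 CPM in any library. Of 4 endothelial markers, which summed to 4.41 to 7.21 CPM in rmCIRBP and 19.0 to 25.9 CPM in PBS, Kdr and Tek were called lower. Smooth muscle markers were high in 3 libraries, rmCIRBP 1, rmCIRBP 2 and PBS 1. Those 5 genes summed to 3749, 8007 and 1543 CPM in rmCIRBP 1, 2 and 3, and to 3849, 1800 and 1567 CPM in PBS 1, 2 and 3. The part of these other cell types in the TRIM values was not tested.

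The TRIM genes covered a wide range of levels. Per length (CPM for each kilobase of exon, RPKM), 16 averaged 10 or more, 20 lay between 1 and 10, and 33 were under 1. Trim28, the corepressor that KRAB zinc finger proteins recruit to chromatin, was the most abundant, at a mean of 46.0 RPKM in rmCIRBP and 49.2 RPKM in PBS. Trim35 followed with 45.5 RPKM in rmCIRBP and 43.8 RPKM in PBS. Trim8, which binds the cytokine signalling inhibitor SOCS1, and Trim44, a member with a ubiquitin-protease type zinc finger in place of the RING, came next. Their levels were 35.6 and 31.6 RPKM in rmCIRBP and 28.3 and 27.7 RPKM in PBS. By the mean of both groups, Pml followed with 25.1 RPKM in rmCIRBP and 23.9 RPKM in PBS, then Trim12c with 27.9 RPKM in rmCIRBP and 17.5 RPKM in PBS, and Trim11 with 21.9 RPKM in rmCIRBP and 21.2 RPKM in PBS. In rmCIRBP alone, Trim12c and Trim30a (26.3 RPKM) stood above Pml. In rmCIRBP, the means of Trim28 and Trim35 were closer than the spread between libraries.

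**Figure D1:**
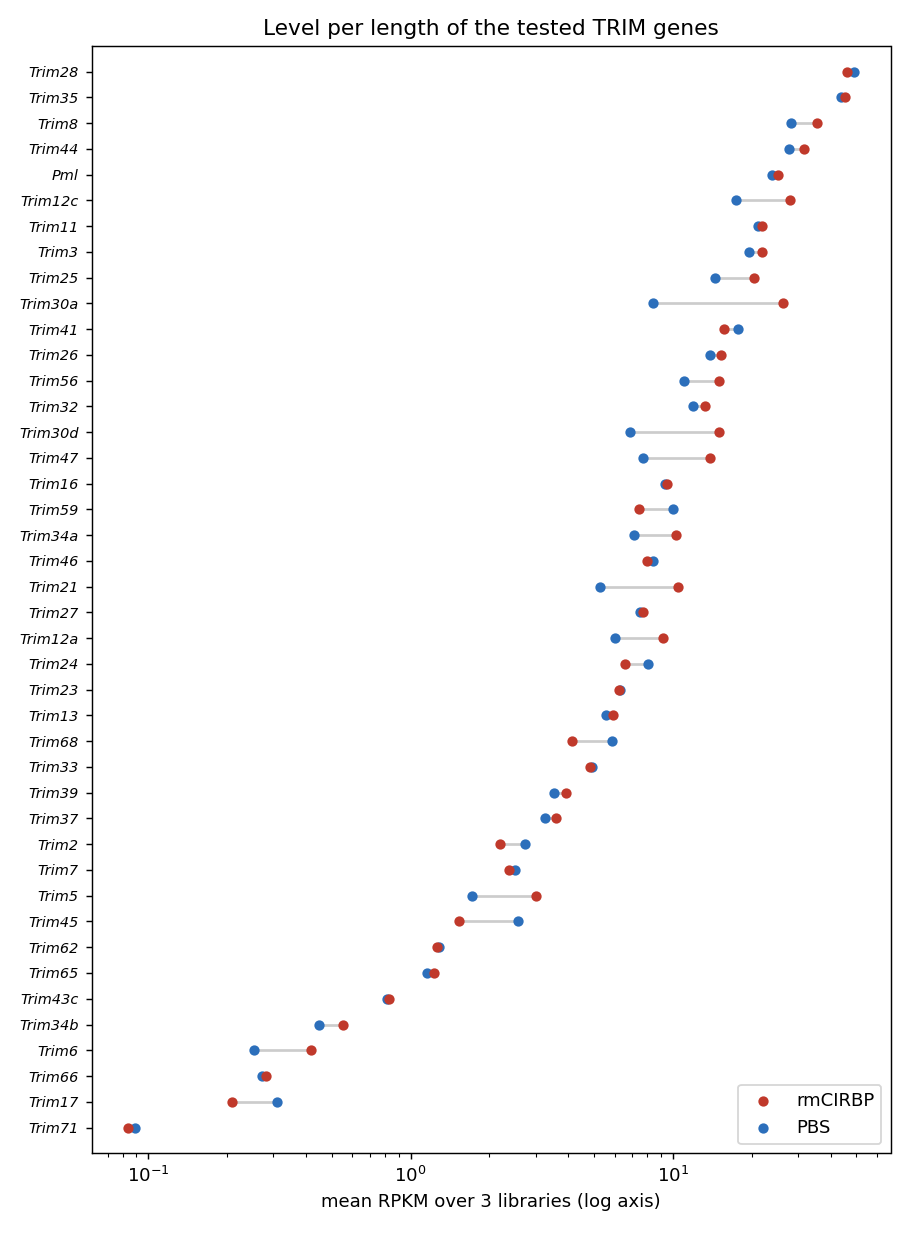
Mean level per length (RPKM, log axis) of the 42 tested TRIM genes over 3 rmCIRBP libraries (red) and 3 PBS libraries (blue), ordered by the mean of both. Trim28 leads at 46.0 RPKM in rmCIRBP and 49.2 RPKM in PBS, and the longest connecting lines belong to Trim30a, Trim30d and Trim21.

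Of the 69 genes, 42 had enough counts to be tested and 27 did not. Among the 27 were muscle and cytoskeleton members. Trim54 and Trim55, relatives of the muscle-wasting ligase Trim63, had no count, and Trim63 had 1 count in rmCIRBP and 1 in PBS. Trim31, Trim43b, Trim52, Trim61 and Trim75 also had none, which makes 7 genes without a count. The other 20 had 1 to 43 counts over the 6 libraries. Trim14, which is known for a role in antiviral signalling at mitochondria, had 17, 5 and 10 counts in rmCIRBP 1, 2 and 3, against 2, 2 and 5 in PBS 1, 2 and 3. Its rmCIRBP counts reach down to the highest PBS count, and with no filter on low counts edgeR gave an adjusted p of 0.186. Its exons share 1356 bases with Nans on the other strand, which had 2226 counts in rmCIRBP and 1991 in PBS, and without a known strand setting the reads of both cannot be told apart. None of the 20 was called in that fit.

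The comparison of rmCIRBP with PBS asked which transcripts extracellular CIRBP changes in these cells. A small group of innate immune TRIM genes rose, led by Trim30a, and the most abundant members, Trim28 and Trim35, were not called. With the quasi-likelihood test of edgeR, and p adjusted by Benjamini-Hochberg over all 15801 genes tested (threshold 0.05), 7 of the 42 TRIM genes were higher and 0 lower, which is 16.7% of those tested. Of all genes tested, 11.5% were called, 6.74% higher and 4.77% lower. That is 1065 higher and 753 lower, against 925 higher and 1022 lower with upper quartile scaling. The median log2 fold change was 0.08 over the 42 genes and -0.0080 over all genes tested. With 0 genes lower, 2 had a negative change at an unadjusted p under 0.05, Trim45 and Trim24, and DESeq2 called 1 lower (Trim45), whereas limma voom called 0. In whole cultures, a change in the number of expressing cells and a change in RNA per cell cannot be told apart.

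Trim30a carried the largest change. The protein is known in mouse for driving the breakdown of TAB2 and TAB3, adaptors of Toll-like receptor signalling to NF-kB. The gene (ENSMUSG00000030921, chromosome 7, 104409025 to 104465193, minus strand, GRCm38) stood at 105, 77.6 and 142 CPM in rmCIRBP 1, 2 and 3, against 25.0, 34.0 and 44.4 CPM in PBS 1, 2 and 3. The groups did not overlap, and the highest PBS library lay well below the lowest rmCIRBP library. The log2 fold change was 1.65 ± 0.26 (SE; adjusted p = 0.00774 by edgeR), or 3.13-fold. It alone among the 7 was called in all 6 fits that left out 1 library, with log2 fold changes of 1.40 to 1.87.

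Trim30d, a paralog separated from Trim30a by 4.82 kb, also rose. It was at 53.8, 43.5 and 72.6 CPM in rmCIRBP 1, 2 and 3, against 18.3, 26.8 and 32.2 CPM in PBS 1, 2 and 3, so the groups did not overlap. Its log2 fold change was 1.13 ± 0.25 (SE; adjusted p = 0.0249 by edgeR); whether it differed from that of Trim30a was not tested. Trim30a had 1.79 to 1.95 counts for each count of Trim30d in the rmCIRBP libraries and 1.27 to 1.38 in the PBS libraries. The 2 genes share few stretches that a read could not place, since 5.98% of the 50-base windows of the Trim30a transcripts (GENCODE M21) also occur in Trim30d. With all Trim30 counts summed to 1 row, the log2 fold change was 1.45 ± 0.26 (SE; adjusted p = 0.0120 by edgeR). The remaining copies were near silent, with 9 counts of Trim30b in rmCIRBP and 7 in PBS, and 1 count of Trim30c in rmCIRBP and 0 in PBS.

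Trim21 rose too. It encodes a cytosolic receptor for the Fc part of antibodies, which marks antibody-coated viruses for destruction. Its levels (chromosome 7, 102557921 to 102565486) were 36.9, 30.4 and 49.4 CPM in rmCIRBP 1, 2 and 3, against 14.4, 17.8 and 26.8 CPM in PBS 1, 2 and 3. The lowest rmCIRBP library lay only just above the highest PBS library. The log2 fold change was 0.98 ± 0.26 (SE; adjusted p = 0.0479 by edgeR), close to the threshold, and the call ended with upper quartile scaling (edgeR adjusted p = 0.0581), library size scaling (0.0560) or a robust edgeR fit (0.0551).

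Trim12c belongs to the mouse genes related to primate TRIM5, the restriction factor that attacks retroviral capsids. It was at 110, 82.9 and 121 CPM in rmCIRBP 1, 2 and 3, against 58.9, 66.1 and 71.2 CPM in PBS 1, 2 and 3, without overlap. The log2 fold change was 0.68 ± 0.15 (SE; adjusted p = 0.0296 by edgeR). Its neighbours Trim12a and Trim5 had log2 fold changes of like size and did not pass. Trim12a had a log2 fold change of 0.61 ± 0.19 (SE; adjusted p = 0.0714 by edgeR) and passed with DESeq2 (adjusted p = 0.0339) or, in edgeR, with no filter on low counts (0.0171). Trim5 was at 12.1, 8.46 and 12.8 CPM in rmCIRBP 1, 2 and 3, against 3.99, 7.08 and 7.86 CPM in PBS 1, 2 and 3 (log2 fold change 0.81 ± 0.29, SE; adjusted p = 0.109 by edgeR). The groups did not overlap for either gene. These 3 are close copies: 33.0% of the 50-base windows of Trim12c occur in other genes, 24.2% of the total in Trim5, so the split between them is uncertain. Summed to 1 row, they had a log2 fold change of 0.66 ± 0.17 (SE; adjusted p = 0.0423 by edgeR).

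Trim25 and Trim56 changed by less, with little spread between libraries. Trim25 attaches ubiquitin chains in the activation of the RNA sensor RIG-I, and Trim56 is known as an antiviral ligase. Trim25 (chromosome 11, 88999376 to 89020293) was at 120, 109 and 123 CPM in rmCIRBP 1, 2 and 3, against 76.7, 80.2 and 92.9 CPM in PBS 1, 2 and 3. Its log2 fold change was 0.49 ± 0.11 (SE; adjusted p = 0.0284 by edgeR). Trim56 (chromosome 5, 137105644 to 137116209) was at 134, 142 and 143 CPM in rmCIRBP 1, 2 and 3, against 100, 100 and 107 CPM in PBS 1, 2 and 3. Its log2 fold change was 0.44 ± 0.09 (SE; adjusted p = 0.0228 by edgeR), the smallest of the 7. Neither gene overlapped between groups. With the replicate number as a block, the calls for Trim25 and Trim56 ended (edgeR adjusted p = 0.0573 and 0.0698).

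Trim47 was the called gene outside the innate immune list, and its libraries ran in another order. It was at 45.7, 37.4 and 30.9 CPM in rmCIRBP 1, 2 and 3, against 16.2, 27.3 and 19.8 CPM in PBS 1, 2 and 3. Where the other 6 called genes were highest in rmCIRBP 3 and in PBS 3, Trim47 was highest in rmCIRBP 1 and PBS 2. The log2 fold change was 0.85 ± 0.22 (SE; adjusted p = 0.0437 by edgeR). The call ended with upper quartile scaling (edgeR adjusted p = 0.0546), library size scaling (0.0542) or the replicate number as a block (0.0684). Trim47 (chromosome 11, 116105752 to 116127210) overlaps Trim65 on the same strand, with 225 exon bases in common. Trim65, known for acting on the RNA sensor MDA5, had a log2 fold change of 0.08 ± 0.24 (SE; adjusted p = 0.853 by edgeR).

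**Figure D2:**
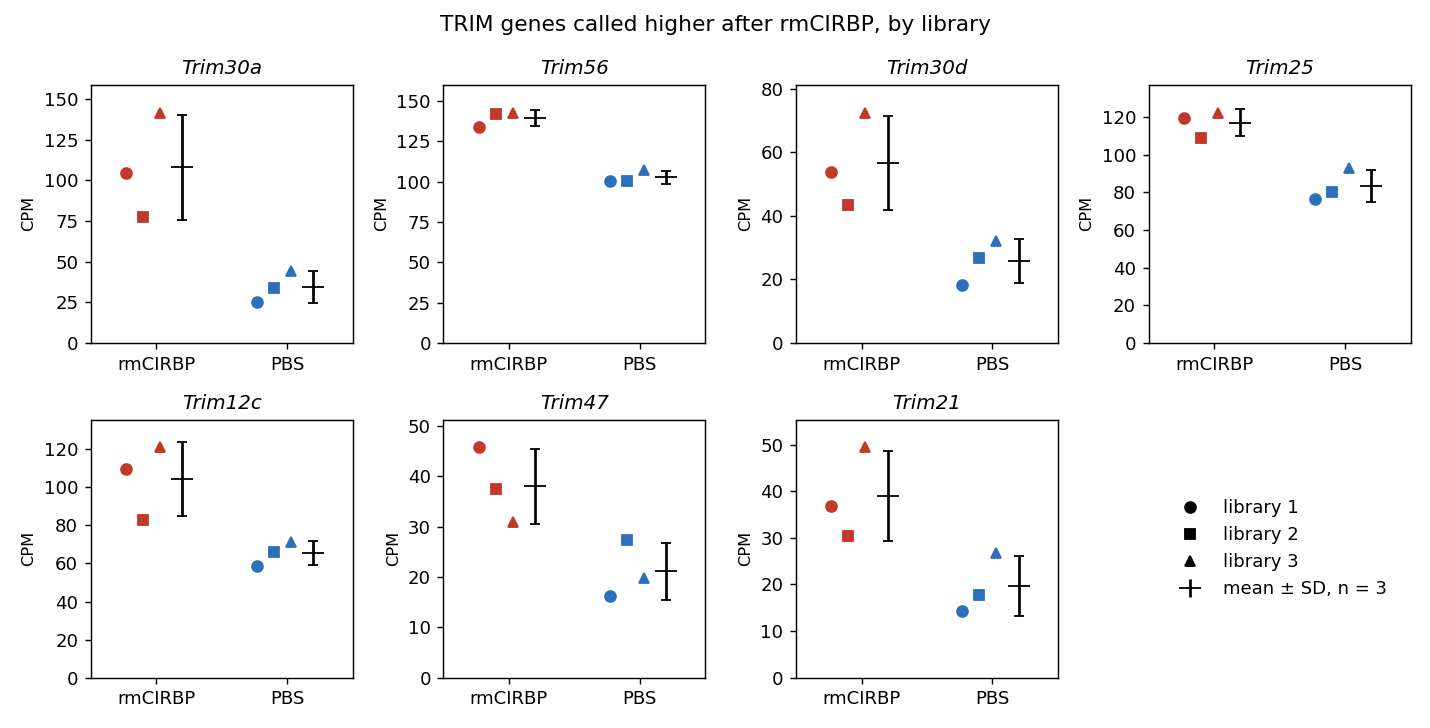
Level in CPM (counts per 1000000, axes from 0) of the 7 TRIM genes called higher, in 3 rmCIRBP libraries (red) and 3 PBS libraries (blue); marker shapes give the library number and black bars the mean ± SD (n = 3). The genes were chosen by the test between these groups, and none overlaps between them. Of all genes tested, 17.5% were higher in rmCIRBP without overlap. For each of the 7 except Trim47, rmCIRBP 3 is the highest rmCIRBP library.

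Most of the called genes ranked the libraries in a like order. Of the 7, 5 were lowest in rmCIRBP 2 among the rmCIRBP libraries and 6 were lowest in PBS 1 among the PBS libraries. Over all genes tested these shares were 40.6% for rmCIRBP 2 and 37.2% for PBS 1. Over the 1065 genes called higher they were 50% for rmCIRBP 2 and 28.9% for PBS 1. Over the 42 tested TRIM genes, called or not, they were 54.8% for each. rmCIRBP 2 and PBS 1 are each the library of their group with the highest sum of smooth muscle markers. The part of that difference in the TRIM values was not tested. With rmCIRBP 2 and PBS 1 left out, which keeps rmCIRBP 1 with a sum close to that of PBS 1, a setting chosen after the values were seen, 6 of the 7 stayed called, Trim30a at a log2 fold change of 1.66 and Trim47 no longer (edgeR adjusted p = 0.0717). Trim12a, Trim5, Trim45 and Trim68 were called in addition, the last 2 as lower, while the number of calls over all genes was 2802.

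Apart from that of Trim30a, each of the 7 calls was lost in at least 1 fit with a library left out. Without rmCIRBP 1 only Trim30a was called, and without rmCIRBP 3 or PBS 2 only Trim30a and Trim47. Without PBS 1 there were 3 calls upward (Trim30a, Trim30d and Trim56), and without PBS 3 there were 4 (Trim21, Trim25, Trim30a and Trim30d). Without rmCIRBP 2 there were 7, with Trim12a in place of Trim47. The 7 genes kept a positive log2 fold change in each of these fits, the lowest being 0.43 for Trim56. The number of calls over all genes moved as well, to 742 without rmCIRBP 1, 723 without PBS 2 and 863 without PBS 3, against 1818 with all libraries.

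**Figure D3:**
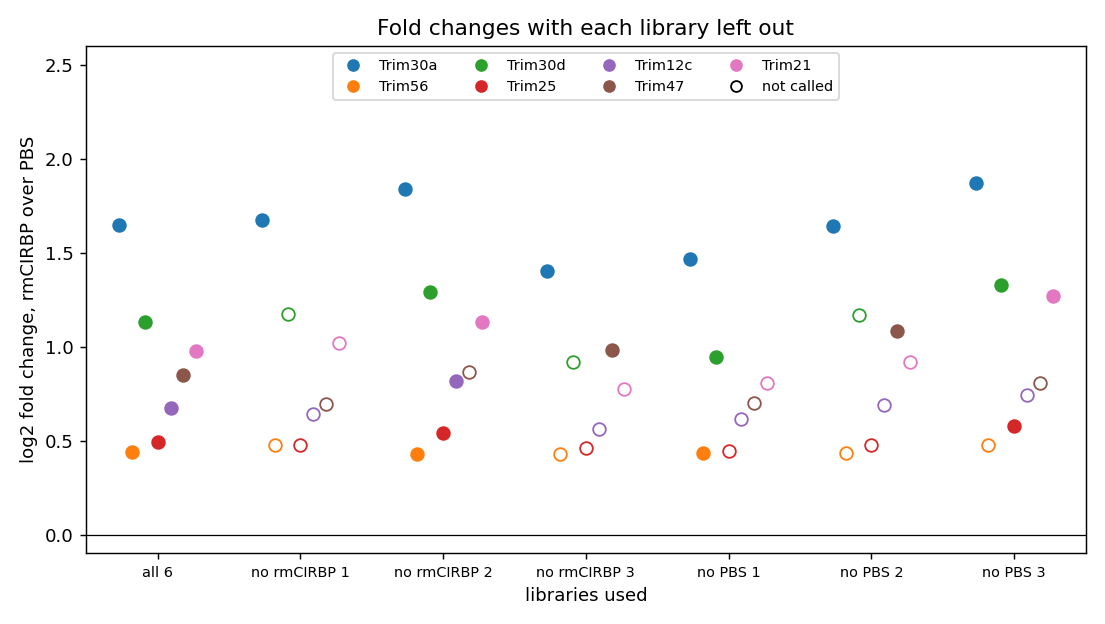
Log2 fold change (rmCIRBP over PBS) of the 7 called TRIM genes with all 6 libraries and with each library left out; filled points passed edgeR's test at an adjusted p of 0.05 and open points did not. All points lie above 0, and Trim30a is filled throughout, at 1.40 to 1.87.

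By role, 6 of the 7 called genes were innate immune members. Of 22 genes on that list, which was drawn up with earlier results of these data known, 15 were tested, 6 rose and 0 fell. Among all genes tested, 6.74% were called higher and 4.77% lower. All 15 had a positive log2 fold change, with a median of 0.52. With upper quartile scaling 14 did, Trim27 turning negative. With 1 library left out 14 or 15 did, the negative gene being Trim13, Trim27, Trim34b or Trim65, and 1 to 7 were called. Groups did not overlap for 9 of the 15, all higher in rmCIRBP, where 17.5% of all genes tested were higher without overlap. Over all 42 tested TRIM genes, 11 (26.2%) were higher without overlap. Lower without overlap were 3 (7.14%), where 17.1% of all genes tested were. Members of the list that were not called included Trim26, a ligase encoded near the MHC (log2 fold change 0.14 ± 0.12, SE; adjusted p = 0.446 by edgeR), Trim27 (0.03 ± 0.15, SE; adjusted p = 0.905 by edgeR) and Trim13 (0.09 ± 0.21, SE; adjusted p = 0.818 by edgeR). Trim6 rested on 20, 27 and 37 counts in rmCIRBP 1, 2 and 3, against 26, 8 and 13 in PBS 1, 2 and 3, and its groups overlapped (edgeR adjusted p = 0.363).

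Of the 5 nuclear and chromatin members 0 were called by edgeR, DESeq2 or limma voom, and 1 (Trim24) had an unadjusted p under 0.05 by edgeR. Pml, which scaffolds PML nuclear bodies and is known as an interferon-induced gene, was at 133, 118 and 169 CPM in rmCIRBP 1, 2 and 3, against 106, 142 and 152 CPM in PBS 1, 2 and 3. The groups overlapped, and the log2 fold change was 0.07 ± 0.18 (SE; adjusted p = 0.827 by edgeR). Trim28 was at 197, 197 and 180 CPM in rmCIRBP 1, 2 and 3, against 193, 223 and 197 CPM in PBS 1, 2 and 3 (log2 fold change -0.10 ± 0.11, SE; adjusted p = 0.605 by edgeR). Trim24, a coregulator of nuclear receptors, was at 53.2 to 59.5 CPM in rmCIRBP and 60.5 to 78.3 CPM in PBS, without overlap, and did not pass (log2 fold change -0.29 ± 0.12, SE; adjusted p = 0.159 by edgeR). Trim33, which binds SMAD proteins, had a log2 fold change of -0.03 ± 0.11 (SE; adjusted p = 0.887 by edgeR).

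The 4 members with NHL repeats (Trim2, Trim3, Trim32 and Trim71) were tested and 0 called by edgeR, DESeq2 or limma voom. Their log2 fold changes were -0.33 to 0.16, and 0 had an unadjusted p under 0.05. Of the 8 muscle and cytoskeleton members 1 was tested, Trim46, which organises microtubules in the axon, with a log2 fold change of -0.08 ± 0.15 (SE; adjusted p = 0.771 by edgeR). Its exons share 239 bases with Krtcap2 on the other strand, which had 2076 counts in rmCIRBP and 1823 in PBS. Among the other 30 genes, 17 were tested and Trim47 alone was called. Trim45 had the largest negative change of the tested genes that the rule took. It was at 10.5, 8.02 and 9.09 CPM in rmCIRBP 1, 2 and 3, against 11.2, 15.8 and 19.4 CPM in PBS 1, 2 and 3, without overlap. Its log2 fold change was -0.75 ± 0.23 (SE; adjusted p = 0.0715 by edgeR), and the decrease passed with DESeq2 (adjusted p = 0.0298) or, in edgeR, with no filter on low counts (0.0402) or without PBS 1 (0.0260). Of the abundant members not called, Trim8 had a log2 fold change of 0.33 ± 0.15 (SE; adjusted p = 0.200 by edgeR), Trim44 of 0.19 ± 0.10 (0.262), Trim35 of 0.06 ± 0.14 (0.825) and Trim11 of 0.05 ± 0.16 (0.874). The values for Trim35 and Trim11 turned slightly negative with upper quartile scaling. Of the 35 tested genes that were not called, 23 had a log2 fold change within 0.2 of 0.

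**Figure D4:**
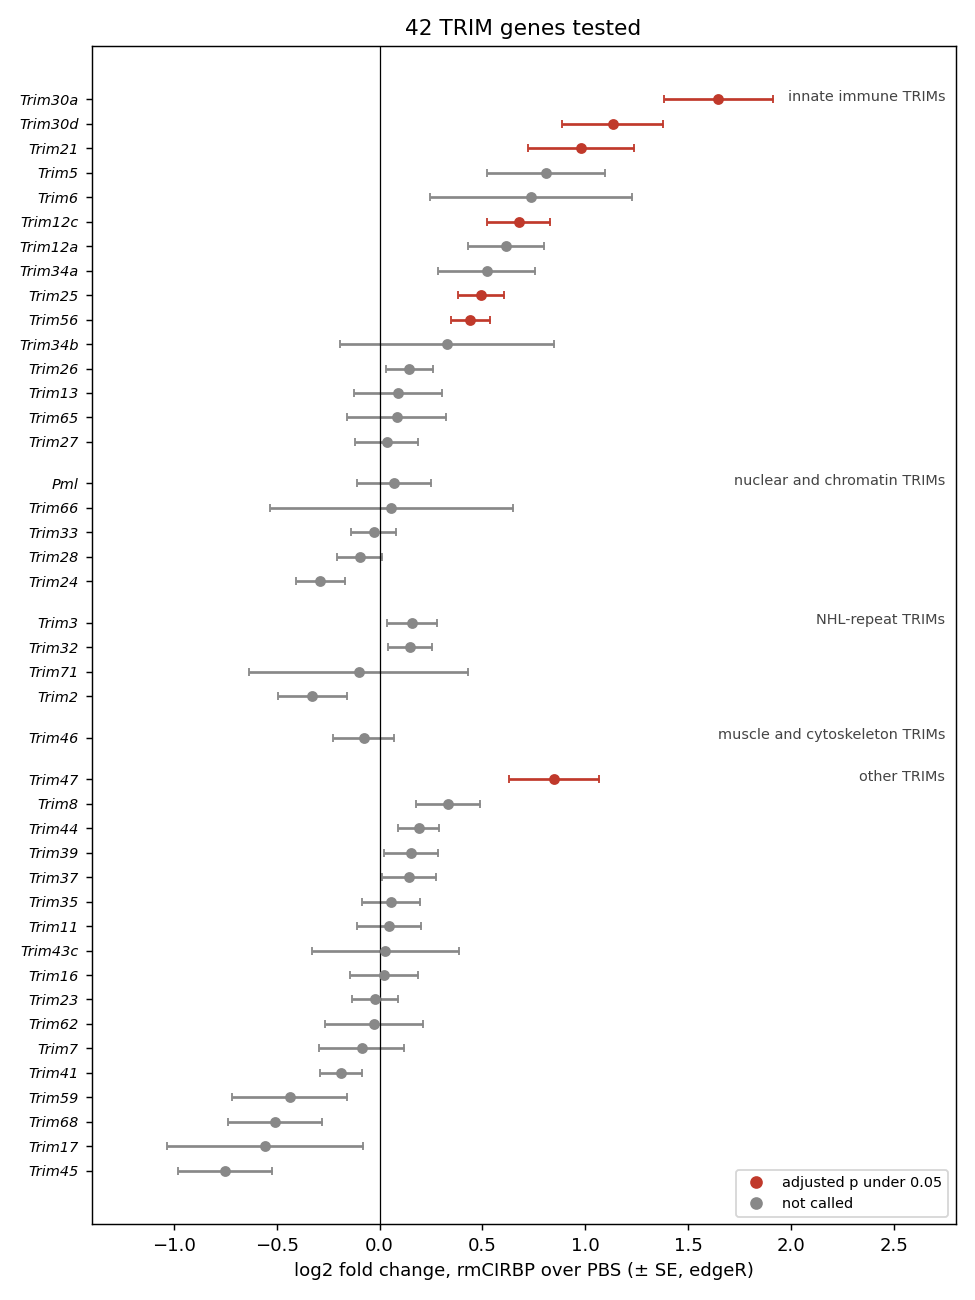
Log2 fold change (rmCIRBP over PBS, ± SE from edgeR) of the 42 tested TRIM genes, grouped by role; red marks an adjusted p under 0.05. The 15 innate immune members all lie right of 0, up to 1.65 for Trim30a, and the lowest value is -0.75 for Trim45.

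Of the 7 genes that rose, 4 lie on chromosome 7. Between Trim6 and Trim30d on chromosome 7 lie 10 of the TRIM genes within 289 kb, and 8 of them were tested. All 8 had positive log2 fold changes, from 0.33 for Trim34b to 1.65 for Trim30a, with a median of 0.71, and 3 were called. Without PBS 3 the value for Trim34b turned negative. Trim21 lies upstream of that run. Its neighbour Trim68 had a negative log2 fold change and overlapping groups, at 10.6 to 16.8 CPM in rmCIRBP against 15.3 to 23.3 CPM in PBS (log2 fold change -0.51 ± 0.23, SE; adjusted p = 0.186 by edgeR). Beyond Trim30d, Trim3 had a log2 fold change of 0.16 ± 0.12 (SE; adjusted p = 0.432 by edgeR). The 57 genes outside the stretch from Trim21 to Trim30d included 32 that were tested, with a median of 0.04 and 3 called.

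Trim34a and Trim34b of this run are close copies whose values are uncertain. Of the 50-base windows of Trim34b, 56.8% occur in Trim34a, and Trim34a also shares 609 exon bases with an antisense gene, Gm47248, that had 322 counts in rmCIRBP and 226 in PBS. Trim34a was at 25.5, 24.1 and 30.1 CPM in rmCIRBP 1, 2 and 3, against 11.8, 21.2 and 22.6 CPM in PBS 1, 2 and 3 (log2 fold change 0.52 ± 0.24, SE; adjusted p = 0.191 by edgeR). Trim34b had 42 counts in rmCIRBP and 31 in PBS. Of the Trim43 copies on chromosome 9, Trim43c was tested, with overlapping groups and a log2 fold change of 0.03 ± 0.36 (SE; adjusted p = 0.968 by edgeR) that turned negative with upper quartile or library size scaling, and Trim43a had 11 counts in rmCIRBP and 21 in PBS. Trim43c also shares 768 exon bases with an antisense transcript, 9330159M07Rik, that had 217 counts in rmCIRBP and 207 in PBS.

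**Figure D5:**
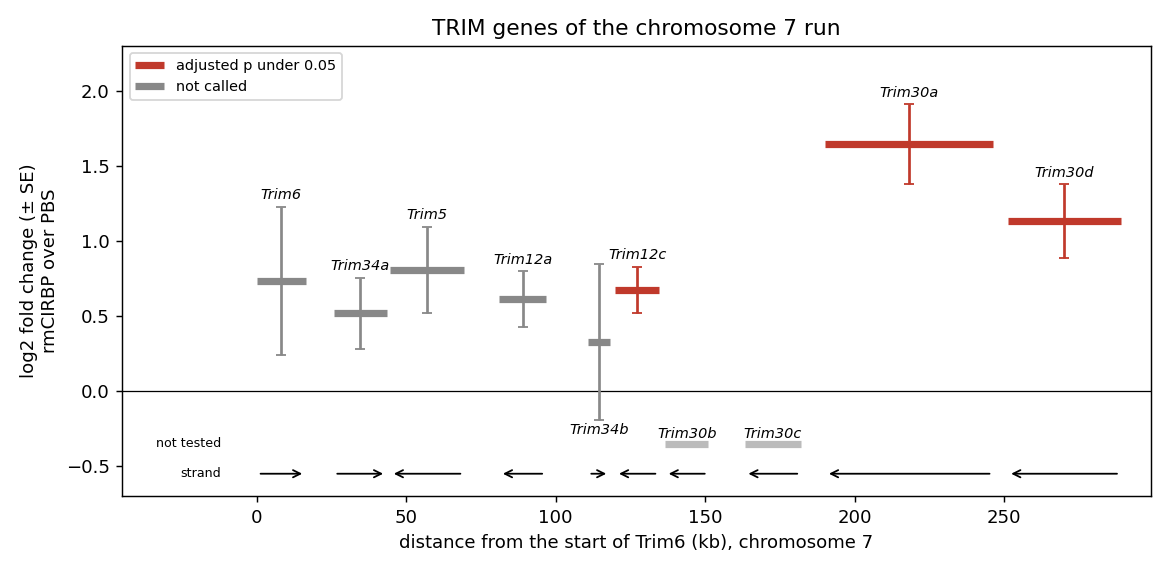
Log2 fold change (rmCIRBP over PBS, ± SE) of the TRIM genes between Trim6 and Trim30d, against distance along chromosome 7 from the start of Trim6 in kb; bars span each gene, red marks an adjusted p under 0.05, light bars mark untested genes and arrows the strand. The 8 tested genes all lie above 0, from 0.33 for Trim34b to 1.65 for Trim30a.

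Promoter windows from RefSeq (GRCm38.p6, 250 bases before to 50 after each start site) were at hand for 54 of the 69 genes, among them all 7 that were called. They were read for the core of the interferon-stimulated response element, ISRE (GAAANNGAA on either strand), to which interferon regulatory factors bind. The match was found in 5 of the 7 called genes, in 7 of the 26 tested and not called that had a window, and in 9.76% of the 27025 genes with windows. Among the 10891 tested genes with windows it was found in 8.6%. Trim47 and Trim56 had none in theirs. Of the 7 not called, Trim5, Trim12a and Trim34a had log2 fold changes of 0.81, 0.61 and 0.52. The rest, whose matches are not printed below, were Trim34b (0.33), Trim26 (0.14), Trim7 (-0.09) and Trim2 (-0.33). The 12 TRIM genes with a match had a median log2 fold change of 0.57, and the 21 tested genes with a window and no match one of 0.03. The matches are sequence descriptions and show no binding, and copies such as Trim30a and Trim30d are not independent of each other.

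The stretches around the match are shown for the 5 called genes that have it and for 3 uncalled neighbours on chromosome 7, 5′ to 3′ on the gene's strand, with at most 30 bases past the start site. Capitals mark the match, read as TTCNNTTTC where it lies on the other strand.
Trim30a, upstream start site (chr7:104465195-104465253, minus strand): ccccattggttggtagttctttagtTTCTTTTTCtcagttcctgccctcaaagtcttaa
Trim30a, downstream start site (chr7:104446096-104446147, minus strand): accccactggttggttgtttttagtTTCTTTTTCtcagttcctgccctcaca
Trim30d (chr7:104507856-104507914, minus strand): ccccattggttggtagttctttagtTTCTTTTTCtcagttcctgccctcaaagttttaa
Trim21 (chr7:102565453-102565494, minus strand): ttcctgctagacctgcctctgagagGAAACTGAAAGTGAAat
Trim25 (chr11:88999369-88999427, plus strand): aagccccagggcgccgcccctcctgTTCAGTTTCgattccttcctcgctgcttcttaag
Trim12c (chr7:104353344-104353402, minus strand): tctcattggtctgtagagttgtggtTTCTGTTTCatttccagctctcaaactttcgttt
Trim12a (chr7:104315466-104315509, minus strand): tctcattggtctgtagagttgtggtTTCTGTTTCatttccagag
Trim5 (chr7:104288121-104288179, minus strand): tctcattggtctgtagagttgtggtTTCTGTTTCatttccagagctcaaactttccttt
Trim34a (chr7:104244443-104244486, plus strand): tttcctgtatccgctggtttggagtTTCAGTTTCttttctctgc

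The whole windows of Trim30a (upstream start site) and Trim30d were the same at 93.6% of 295 aligned bases, and their log2 fold changes were 1.65 and 1.13. The windows of Trim5 and Trim12a were the same at all 241 bases that could be aligned. In Trim21 the 2 matches overlap by 3 bases. None of the 7 called genes had a match to TTCNNNGAA (the GAS element of interferon gamma responses) or to the NF-kB motif, each of which was held by 9.55% of the genes with windows. Among the tested genes with windows the shares were 8.12% for GAS and 12.4% for NF-kB. No match says only that these letters are not in the window.

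Genes that work with TRIM ligases were read from lists chosen with earlier results known. Interferon signalling genes rose beside the innate immune TRIM genes. Of 9 interferon factors, 8 were tested, 5 rose and 0 fell, where 6.74% of all genes tested were called higher and 4.77% lower. Irf1, an activator of interferon-induced genes, was at 100, 98.3 and 124 CPM in rmCIRBP 1, 2 and 3, against 25.4, 28.9 and 33.6 CPM in PBS 1, 2 and 3. Its log2 fold change was 1.88 ± 0.15 (SE; adjusted p = 0.000305 by edgeR), and the receptor chains Ifnar1 and Ifnar2 had 1.03 ± 0.12 and 1.76 ± 0.19 (SE; adjusted p = 0.00190 and 0.00146 by edgeR). Irf2, a further factor of the IRF family, rose by 0.56 ± 0.13 (SE; adjusted p = 0.0306 by edgeR). With a library left out, the call for Irf2 held in 2 of 6 fits, and those for Irf1, Ifnar1 and Ifnar2 in all 6. Irf9 was not called (log2 fold change 0.30, edgeR adjusted p = 0.314). Ifnb1, the interferon beta gene, had 0 counts in rmCIRBP and 3 in PBS.

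Partners of TRIM ligases in cytosolic nucleic acid sensing, which include sensors, adaptors, kinases and transcription factors, rose in part. Of 12 genes of cytosolic nucleic acid sensing, 6 rose and 0 fell by edgeR, with a median log2 fold change of 0.93, and 9 rose by DESeq2. Among all genes tested, edgeR called 6.74% higher and 4.77% lower. Ddx58, the RIG-I gene that Trim25 serves, was at 231, 225 and 252 CPM in rmCIRBP 1, 2 and 3, against 109, 107 and 134 CPM in PBS 1, 2 and 3 (log2 fold change 1.02 ± 0.12, SE; adjusted p = 0.00247 by edgeR). Ikbke, a kinase of the interferon response, had a log2 fold change of 1.53 ± 0.18 (SE; adjusted p = 0.00225 by edgeR). Ifih1, the MDA5 gene, had 1.11 ± 0.20 (SE; adjusted p = 0.0120 by edgeR), and Zc3hav1, an antiviral RNA-binding protein, 0.85 ± 0.12 (SE; adjusted p = 0.00442 by edgeR). Ifih1 was called in 5 of 6 fits with a library left out, Dhx58 in 2 and Irf7 in 1, the other 3 in all 6. Rnf135, a RING ligase of RIG-I that is no TRIM gene, was not called (log2 fold change 0.47, edgeR adjusted p = 0.188).

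In ISG15 conjugation, a ubiquitin-like pathway, 4 of 5 genes rose, where 6.74% of all genes tested were called higher. Isg15 itself was at 181, 137 and 226 CPM in rmCIRBP 1, 2 and 3, against 40.9, 62.6 and 61.7 CPM in PBS 1, 2 and 3 (log2 fold change 1.72 ± 0.23, SE; adjusted p = 0.00334 by edgeR). Herc6, the mouse ligase for ISG15, had a log2 fold change of 1.83 ± 0.19 (SE; adjusted p = 0.00129 by edgeR). Of 11 E1 and E2 enzymes used by RING ligases 0 passed edgeR's test, where 11.5% of all genes tested did. By edgeR 3 of the 11 had an unadjusted p under 0.05, and DESeq2 called 1. The log2 fold changes of the 11 ran from -0.13 to 0.43, 9 of them positive. Without overlap 4 of the 11 were higher and 0 lower, where 17.5% and 17.1% of all genes tested were.

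Of all genes tested 6.74% were called higher, and of 11 genes of Toll-like receptor and NF-kB signalling that TRIM proteins act on, 1 was. That was Traf3, an adaptor, at 94.5, 111 and 86.9 CPM in rmCIRBP 1, 2 and 3, against 37.8, 36.8 and 34.7 CPM in PBS 1, 2 and 3 (log2 fold change 1.42 ± 0.12, SE; adjusted p = 0.000431 by edgeR). Ikbkg, Map3k7 and Ripk1 did not pass, but by edgeR they and Traf3 had an unadjusted p under 0.05. With upper quartile scaling only Traf3 did. These 4 genes were higher without overlap, where 17.5% of all genes tested were, and 1 gene (Tab1) was lower without overlap. Traf6, a ubiquitin ligase of the same pathway, had a log2 fold change of 0.05 (edgeR adjusted p = 0.776). Tab2 and Tab3, whose proteins Trim30a acts on, had log2 fold changes of 0.09 ± 0.11 and -0.09 ± 0.13 (SE; adjusted p = 0.623 and 0.701 by edgeR). Of 10 partners of Pml in nuclear bodies 3 rose, where 6.74% of all genes tested were called higher. Sp100, a body component, had a log2 fold change of 1.48 ± 0.19 (SE; adjusted p = 0.00264 by edgeR), beside 0.07 for Pml. Daxx, a histone chaperone, had 0.47 ± 0.10 (SE; adjusted p = 0.0190 by edgeR), a call that held in 3 of the 6 fits with a library left out. Of 10 genes of the silencing complex around Trim28 0 passed by edgeR, DESeq2 or limma voom, where edgeR called 11.5% of all genes tested. By edgeR 2 of the 10 had an unadjusted p under 0.05, and their log2 fold changes as a list ran from -0.33 to 0.29.

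Of 6 related genes that carry other names and so fall outside the rule, 5 were tested and 1 was called lower, against 3 by DESeq2. Among all genes tested, edgeR called 4.77% lower. The median log2 fold change of the 5 was -0.51, and 4 of them were lower without overlap, where 17.1% of all genes tested were. Mid2, a microtubule-bound ligase, was lower, at 19.2, 23.9 and 21.3 CPM in rmCIRBP 1, 2 and 3, against 33.2, 33.5 and 29.9 CPM in PBS 1, 2 and 3 (log2 fold change -0.58 ± 0.13, SE; adjusted p = 0.0242 by edgeR). The call held in 2 of the 6 fits with a library left out. The others lower without overlap were Cmya5, a muscle protein (log2 fold change -1.50 ± 0.44, SE; adjusted p = 0.0652 by edgeR), Fsd1l (-0.51 ± 0.16, SE; adjusted p = 0.0740 by edgeR) and Fsd1 (-0.51 ± 0.21, SE; adjusted p = 0.154 by edgeR). Mid1, the paralog of Mid2, had overlapping groups and a log2 fold change of 0.12 (edgeR adjusted p = 0.588).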

How the data were processed

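The authors deposited raw counts per gene for 6 libraries. The submitters' processing notes name featureCounts, DESeq2, R 4.1.2 and the GRCm38 (mm10) build. The aligner, annotation release, strand setting and treatment of reads with several matches are details not given in the sources used here, and values of antisense partners and close copies are uncertain. Group and number in the column names gave the samples.

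The counts were then tested with edgeR 4.0.16 (R 4.3.3): filterByExpr by group, TMM scaling, quasi-likelihood F test, two-sided, treatment as the one factor, Benjamini-Hochberg adjustment at 0.05 over all genes tested. Each SE is the log2 fold change divided by the square root of F. CPM used TMM-scaled library sizes, and RPKM these CPM and union exon lengths of GENCODE M21, in which all 69 genes had the deposited coordinates. Shared windows were counted in its transcripts. All pairs of libraries within a group differed beyond sampling noise (chi-square per degree of freedom at least 14.2). Scripts were tested on simulated data. Alternatives included limma 3.58.1 and DESeq2 1.42.0.

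Members, lists and alternatives were chosen with earlier results of these data known. The text names every called gene, the 6 uncalled with the highest RPKM, the 4 with the largest fold change, the close copies, and up to 4 genes per other list by smallest p; the others named (Trim13, Trim14, Trim24, Trim26, Trim27, Trim33, Trim46, Trim65, Trim68, Irf2, Irf9, Ifnb1, Rnf135, Traf6, Tab2, Tab3 and Mid1 among them) were added after their values were seen. Values of a few listed genes are not reported here.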

Additional observations from a re-analysis of the deposited data

How the results depend on the processing

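The count of TRIM genes called higher, 7 with all libraries, was 5 to 8 under other scalings, filters and tests. With the replicate number as a block it was 4 (Trim12c, Trim21, Trim30a and Trim30d). The deviations of same-numbered libraries from their group means had r of -0.107, -0.169 and 0.246 for numbers 1, 2 and 3. Of the 3 rmCIRBP libraries, 1 correlated best with its own number. With 3 libraries in each group, and no pairing named in the labels, this cannot tell whether the numbers pair the samples. With each library left out the count was 1 to 7. The count called lower, 0, was 1 with no filter on low counts, 1 with DESeq2, 0 to 1 with a library left out and 2 with PBS 1 and rmCIRBP 2 both left out. The cause was not tested. Over all genes 1818 were called, 723 to 2144 with a library left out and 2802 without PBS 1 and rmCIRBP 2 (both libraries in what follows), a setting chosen after seeing the data.

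Of 340 single-gene values under the alternatives, 283 kept direction and side of the threshold, 33 lost a call, 9 gained one and 15 turned sign. The sign turned for genes that were not called: Trim35 (-0.0068 with upper quartile scaling, -0.027 without both libraries, -0.076 to 0.14 with a library left out), Trim11 (-0.020 with upper quartile scaling, -0.13 to 0.19), Trim43c (-0.037 with upper quartile scaling, -0.0058 with library size scaling, -0.30 without both libraries, -0.21 to 0.28), Pml (-0.085 to 0.18) and Trim34b (-0.063 to 0.65). Depth limits the 27 untested genes and, among those tested, Trim71, Trim34b, Trim17, Trim6 and Trim43c.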
